A study of Mus musculus with 8 samples.

Results

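The tRNAs that carry cysteine (Cys), phenylalanine (Phe), tyrosine (Tyr) and tryptophan (Trp) were described in small RNA sequencing of mouse liver cells with and without KAP1. Their listed sequences were taken by name, that is, every tRNA row whose amino acid code was Cys, Phe, Tyr or Trp. There were 47 such sequences among the 489 tRNA and snoRNA sequences listed in either of 2 tables, beside 346 tRNA sequences for other amino acids and 96 snoRNA sequences. Each table held 43 of them, of which 39 were in both. By family, 22 names were Cys, 7 Phe, 10 Tyr and 8 Trp, and each family had a single anticodon, so that a sum over an amino acid was also a sum over its anticodon.

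KAP1, also called TRIM28, is a co-repressor that is brought to DNA by zinc-finger proteins and is also found at actively transcribed genes. The study sequenced rRNA-depleted small RNA from Hepa 1-6 cells, a mouse hepatoma line, and from primary mouse hepatocytes, with 1 library per condition. The Hepa 1-6 control library came from cells given an empty or control shRNA vector and the Kap1 KD (knock-down) library from cells given an shRNA against Kap1. One label field speaks of plasmid transfection and another of transduction 5 days before the cells were collected, and the methods state puromycin selection for the line. The hepatocyte libraries were labelled wild type and Kap1 KO (knock-out), and were processed straight after the cells were purified. The labels used here name no age, strain, allele or Cre driver for them. The line and the hepatocytes were depleted of rRNA with different kits, so their tables were set side by side and not compared by a ratio. The small RNA tables hold no mRNA, so neither the loss of Kap1 nor the labelled cell type could be checked in these 4 libraries. In separate mRNA libraries of the line, Trim28 stood at 474 and 571 CPM (counts scaled to a common library total) in the control libraries and at 109 and 74.5 in the Kap1 KD libraries.

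A tRNA brings its amino acid to the ribosome and pairs with the codon of the mRNA through 3 bases, the anticodon. tRNA genes are transcribed by RNA polymerase III from promoter elements inside the gene, and the same mature tRNA is often made from several gene copies. Mouse Tyr tRNA genes carry a short intron just after the anticodon, which is cut out before the tRNA is used. A listed sequence was the tRNA gene with flanks, and listed lengths ran from 472 to 493 bases, so a count can hold reads from a mature tRNA, from its precursor or from a flank.

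Sequences of members that could be read from the mouse genome (NCBIM37, mm9) are shown here, since the identity of copies decides which counts can be read apart. They were read from the genome at cloverleaf-like tRNA genes, and a name was given a position only where 1 gene of its amino acid and length lay on its chromosome. In the first set, capitals mark the anticodon. chr17.tRNA458-CysGCA lies at chr17:71948611-71948682 on the plus strand, in no annotated gene, and the same 72 bases occur at 1 further place. chr10.tRNA961-PheGAA (chr10:79711709-79711781, minus strand), chr14.tRNA457-PheGAA (chr14:118488747-118488819, minus strand) and chr5.tRNA1315-PheGAA (chr5:125886425-125886497, minus strand), also in no annotated gene, have 1 sequence in common, which was found at 5 places. The names chr13.tRNA107-TrpCCA and chr13.tRNA109-TrpCCA belong to a pair of identical genes on that chromosome, so their sequence is known but not which name has which position.
chr17.tRNA458-CysGCA: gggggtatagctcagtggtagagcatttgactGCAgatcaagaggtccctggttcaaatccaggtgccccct
chr5.tRNA1315-PheGAA: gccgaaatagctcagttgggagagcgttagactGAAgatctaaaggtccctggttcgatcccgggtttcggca
chr13.tRNA107-TrpCCA: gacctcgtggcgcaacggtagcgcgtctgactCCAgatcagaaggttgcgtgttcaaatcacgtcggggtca

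A few Tyr genes are shown because a pair of them has different introns and the same spliced sequence. Capitals here mark the intron. In the order printed they lie at chr13:23558945-23559034 (plus), chr13:23518964-23519049 (minus) and chr5:31190456-31190544 (plus), in no annotated gene.
chr13.tRNA106-TyrGTA: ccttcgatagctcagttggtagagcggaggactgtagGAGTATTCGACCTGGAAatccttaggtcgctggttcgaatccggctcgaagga
chr13.tRNA960-TyrGTA: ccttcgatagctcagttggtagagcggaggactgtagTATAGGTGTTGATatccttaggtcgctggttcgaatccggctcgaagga
chr5.tRNA109-TyrGTA: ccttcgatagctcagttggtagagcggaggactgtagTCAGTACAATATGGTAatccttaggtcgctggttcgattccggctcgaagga

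The introns of the 10 Tyr genes found ran from 13 to 20 bases. Once spliced, the listed Tyr names fell into 4 known sequences of 73 bases. Sequence 1 was that of chr13.tRNA106-TyrGTA and chr13.tRNA960-TyrGTA, and also of chr13.tRNA101-TyrGTA and chr13.tRNA958-TyrGTA, which cannot be told from each other by length. Sequence 2 was that of chr14.tRNA191-TyrGTA and chr3.tRNA28-TyrGTA, sequence 3 that of chr3.tRNA27-TyrGTA and sequence 4 that of chr5.tRNA109-TyrGTA. The spliced sequence of chr13.tRNA959-TyrGTA and chr13.tRNA961-TyrGTA was not assigned, because the genes of that length on chromosome 13 differ. A read from a mature tRNA cannot be assigned to 1 copy of a spliced sequence. The study's RNA-Seq methods name TopHat with 1 reported alignment per read, but do not say whether this holds for the small RNA tables.

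All listed sequences, tRNA and snoRNA, summed to 26249204 counts in Hepa 1-6 control and 29223566 in Kap1 KD. In hepatocytes they summed to 3028467 in wild type and 11006899 in Kap1 KO. The listed tRNA sequences alone summed to 1059106, 653800, 46617 and 71380 counts in the same order. Those of the 4 amino acids together held 20807, 12168, 1550 and 1201 counts in the same order. Intervals below are exact 95% intervals that cover counting error only, since each condition had 1 library and no test between conditions was possible. They take every count as a separate read, and are too narrow wherever a read was counted at several copies.

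In hepatocytes, the 4 families held a smaller share of the tRNA counts in the Kap1 KO library than in the wild-type library, whereas in Hepa 1-6 cells their shares lay close together. Their joint share was 3.32% (interval 3.16 to 3.49) in wild-type and 1.68% (1.59 to 1.78) in Kap1 KO hepatocytes. In Hepa 1-6 cells it was 1.96% (1.94 to 1.99) in control and 1.86% (1.83 to 1.89) in Kap1 KD. The hepatocyte shares of Tyr, Cys and Trp were each smaller in Kap1 KO. That of Phe was 0.041% (0.025 to 0.064) in wild type and 0.056% (0.040 to 0.076) in Kap1 KO. A share within a library needs no scaling between libraries. In bulk libraries such as these, fewer cells of a type and less of an RNA per cell cannot be told apart.

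Tyr tRNA held 2.02% (1.89 to 2.15) of tRNA counts in wild-type hepatocytes and 0.927% (0.858 to 1.0) in Kap1 KO, and 0.253% (0.243 to 0.263) and 0.268% (0.256 to 0.281) in control and Kap1 KD Hepa 1-6 cells. Cys tRNA held 0.622% (0.553 to 0.698) in wild-type and 0.286% (0.248 to 0.328) in Kap1 KO hepatocytes, and 1.57% (1.55 to 1.60) and 1.45% (1.42 to 1.48) in control and Kap1 KD Hepa 1-6 cells. Trp tRNA held 0.641% (0.571 to 0.718) and 0.413% (0.368 to 0.463) in the hepatocyte libraries, and 0.128% (0.122 to 0.135) and 0.136% (0.127 to 0.145) in those of the line. For Cys, Tyr and Trp, the hepatocyte intervals did not overlap between wild type and Kap1 KO, and of the Hepa 1-6 intervals only those of Cys did not. Over all 22 amino acid labels, 86.4% had intervals that did not overlap in hepatocytes and 68.2% in the line, so this was no more frequent in the 4 families than elsewhere. Phe tRNA was the least counted of the 4 in all libraries, with 116 counts in control, 52 in Kap1 KD, 19 in wild type and 40 in Kap1 KO, and its intervals overlapped within both pairs. Among the 22 amino acid labels of the tRNA names, which include selenocysteine and suppressor tRNAs, Tyr ranked 13 by counts in wild-type and 14 in Kap1 KO hepatocytes, and 18 in both Hepa 1-6 libraries. Cys ranked 11 and 12 in the line, and 16 and 20 in wild-type and Kap1 KO hepatocytes. The families therefore kept nearly the same place in the line, while Cys stood lower in the Kap1 KO list of the hepatocytes.

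**Figure D1:**
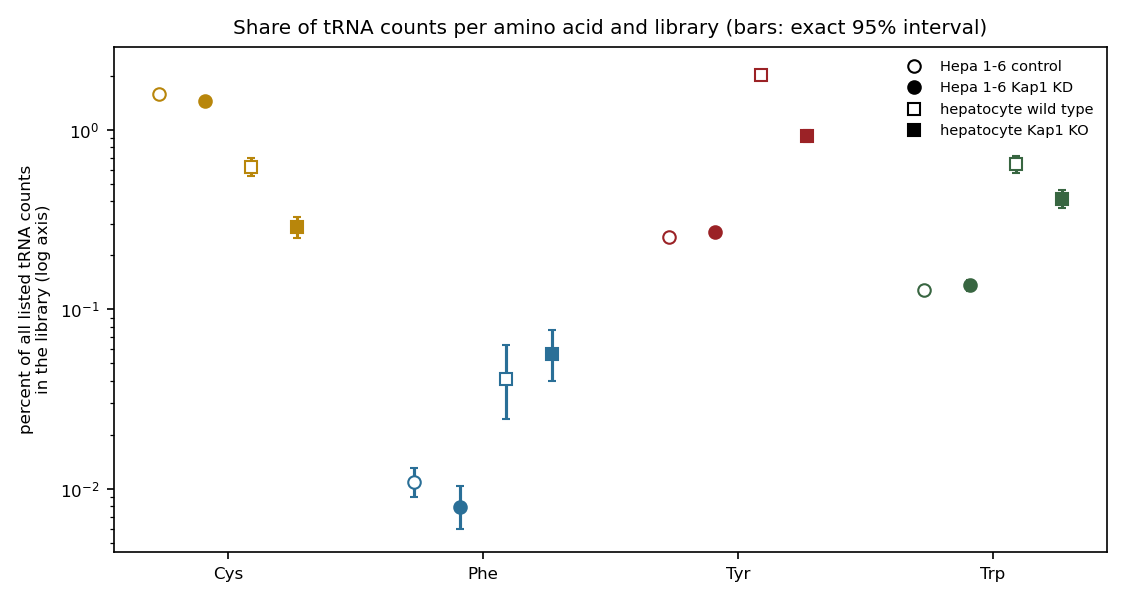
Share of all listed tRNA counts held by each amino acid in each library, in percent on a log axis, with circles for Hepa 1-6 cells, squares for hepatocytes, open symbols for control or wild type, filled symbols for Kap1 KD or KO, and bars for the exact 95% interval. The squares of Tyr go from 2.02% in wild type to 0.927% in Kap1 KO, and the circles of Tyr lie at 0.253% and 0.268%.

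The log2 ratio of a sequence was the Kap1-depleted library minus its control after TMM scaling over all listed sequences, with 0.5 added to each count, for sequences with at least 50 counts summed over the pair. Of the 43 listed members, 22 passed in Hepa 1-6 cells and 14 in hepatocytes. A member could pass through the library where it was high, so the counts below describe those that passed and not the families as a whole.

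In hepatocytes, all 14 members that passed were at least 1.5-fold lower in the Kap1 KO library, and none was 1.5-fold higher. Of the 14, 9 were Tyr names, several of them with the same spliced sequence. Over all listed sequences that passed, 30.7% were 1.5-fold lower and 30.3% higher. Among the 152 other tRNA sequences that passed, 62 (40.8%) were 1.5-fold lower and 23 (15.1%) higher. The median log2 ratio of the 14 was -1.37, with a range from -1.82 to -0.59, against a median of -0.48 over the other tRNA sequences and of 0.73 over the 95 snoRNA sequences. The difference between the medians of the 4 families and of the other tRNA sequences, which does not depend on the scaling, was -0.90. It depended on the count minimum and was -0.38 with a minimum of 10 counts and -0.37 with none beyond 1 count. With scaling over tRNA sequences only, all log2 ratios of the pair shifted by 0.35, and 8 of the 14 members were 1.5-fold lower. With Tyr copies of the same spliced sequence summed, 10 were 1.5-fold lower, 0 were higher, and the members' median was -1.07. The shares over all listed and over the other tRNA sequences belong to the main scaling without summing. They were not calculated for these alternatives.

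For the line, 3 of the 22 Hepa 1-6 members that passed were at least 1.5-fold higher in the Kap1 KD library and 4 were 1.5-fold lower. The shares over all listed sequences that passed were 16.8% higher and 17.4% lower, and over the other tRNA sequences alone 7.59% and 23.7%, so the members stood near the background in both directions. Their median log2 ratio was 0.12, with a range from -1.04 to 1.12, against -0.12 over 224 other tRNA sequences and 0.49 over 93 snoRNA sequences. The difference from the median of the other tRNA sequences was 0.24. The sign of the members' own median depended on the processing: it was -0.69 with scaling to the total of listed counts and -0.11 with Tyr copies of 1 spliced sequence summed.

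**Figure D2:**
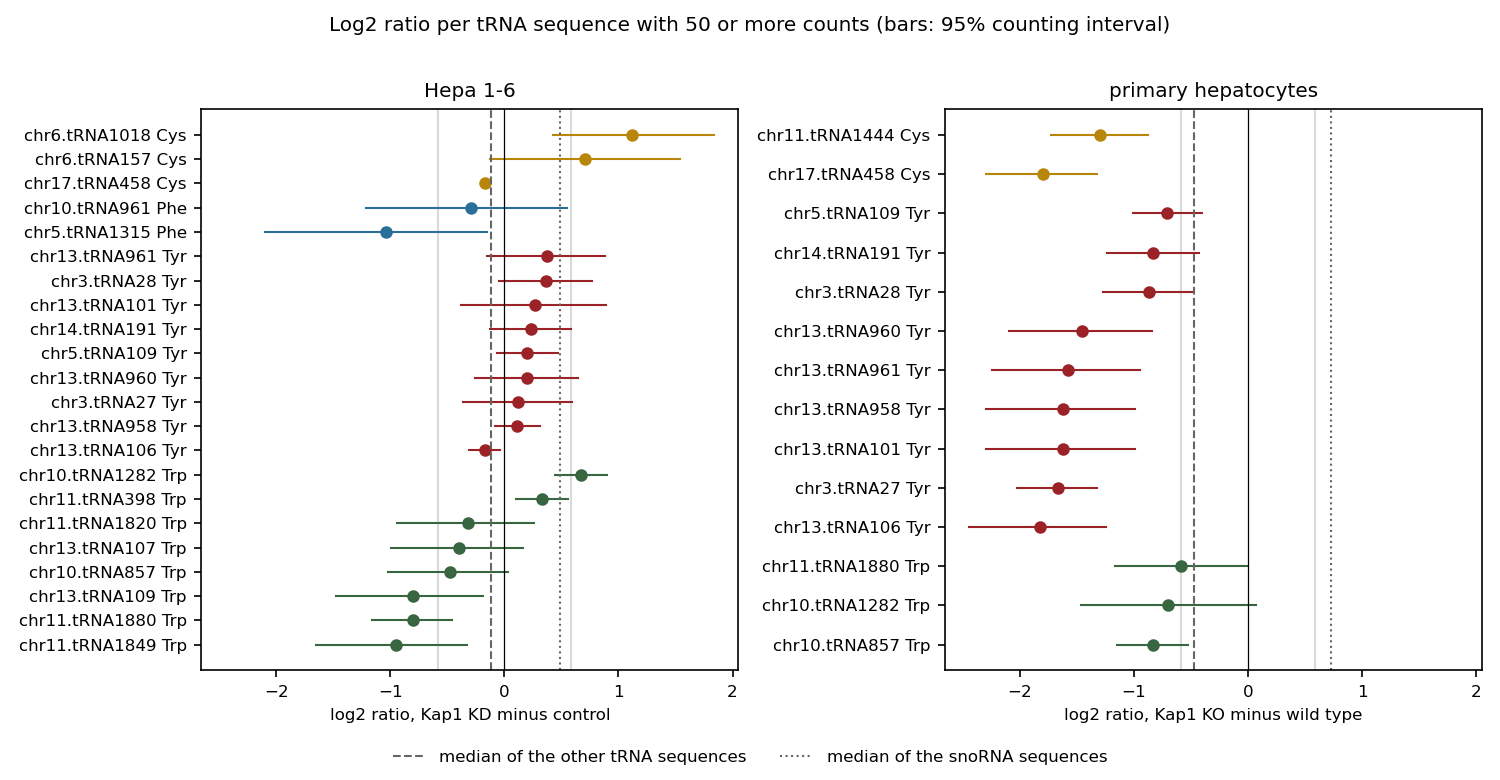
Log2 ratio of each member with at least 50 counts summed over the pair, Kap1 KD minus control in Hepa 1-6 cells (left) and Kap1 KO minus wild type in hepatocytes (right), with exact 95% counting intervals, grey lines at 1.5-fold, and dashed and dotted lines at the medians of the other tRNA and the snoRNA sequences. All 14 hepatocyte points lie between -1.82 and -0.59, left of the dashed line at -0.48, and the 22 Hepa 1-6 points lie on both sides of 0.

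Tyr tRNA, the family with the most counts in hepatocytes, summed to 942 counts in wild type and 662 in Kap1 KO, a log2 ratio of -1.21 (interval -1.35 to -1.06). All 9 Tyr sequences that passed were lower, with a median of -1.57. Among the 20 amino acid labels with any sequence that passed, only glutamine tRNA had a lower median, -1.59 over 2 sequences. The Tyr sum of Hepa 1-6 cells was 2679 counts in control and 1753 in Kap1 KD, with a log2 ratio of 0.04 (interval -0.05 to 0.13), and the 9 sequences that passed ran from -0.17 to 0.37, none of them past 1.5-fold. The sum in the line leaned on chr13.tRNA106-TyrGTA, which held 47.5% of the Tyr counts in control and 41.0% in Kap1 KD, and was 0.21 (0.09 to 0.32) without it.

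In hepatocytes, the size of the Tyr difference went with the spliced sequence. chr13.tRNA106-TyrGTA, with spliced sequence 1, had 79 counts in wild type and 36 in Kap1 KO, the lowest log2 ratio of the 4 families at -1.82 (interval -2.44 to -1.25). The other 3 names with sequence 1 had 61 counts each in wild type and 32 to 36 in Kap1 KO. chr3.tRNA27-TyrGTA, with sequence 3, had 208 and 106 counts, a log2 ratio of -1.67 (-2.02 to -1.33). So all 5 names with sequence 1 or 3 lay between -1.82 and -1.45.

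The 3 names with sequence 2 or 4 were less far apart between the libraries, with log2 ratios from -0.87 to -0.70. chr5.tRNA109-TyrGTA, with sequence 4, had 185 counts in wild type and 184 in Kap1 KO, a log2 ratio of -0.70 (interval -1.01 to -0.40). chr14.tRNA191-TyrGTA had 111 and 101 counts, and chr3.tRNA28-TyrGTA, which has the same spliced sequence 2, had 114 and 101, at -0.83 (-1.24 to -0.43) and -0.87 (-1.27 to -0.47). This split was seen after the values were known, rests on 4 spliced sequences in 1 pair of libraries, and was not tested. Names with the same spliced sequence may hold the same reads, so like ratios among them are not separate observations. In Hepa 1-6 cells the 3 names with sequence 2 or 4 ran from 0.20 to 0.36, those of sequence 1 from -0.17 to 0.27, and sequence 3 stood at 0.12, so the ranges overlapped there.

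The copies of spliced sequence 1 had like counts in hepatocytes and unlike counts in the line. Its 4 names ran from 61 to 79 counts in wild-type and from 32 to 36 in Kap1 KO hepatocytes, a highest-to-lowest ratio of 1.30 and 1.12. The same names ran in Hepa 1-6 cells from 51 to 1272 counts in control and from 39 to 718 in Kap1 KD, a ratio of 24.9 and 18.4. chr13.tRNA106-TyrGTA had 1272 counts in control and 718 in Kap1 KD, chr13.tRNA958-TyrGTA 531 and 366, chr13.tRNA960-TyrGTA 100 and 73, and chr13.tRNA101-TyrGTA 51 and 39. The order of these 4 copies was the same in both Hepa 1-6 libraries. The 2 names with sequence 2 had like counts in all libraries, with ratios of 1.36 and 1.24 in the line and 1.03 and 1.0 in hepatocytes. Whether like counts came from reads counted at every copy, which a family sum would then hold more than once, was not tested. In that case the intervals of the Tyr sums and shares would be too narrow.

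**Figure D3:**
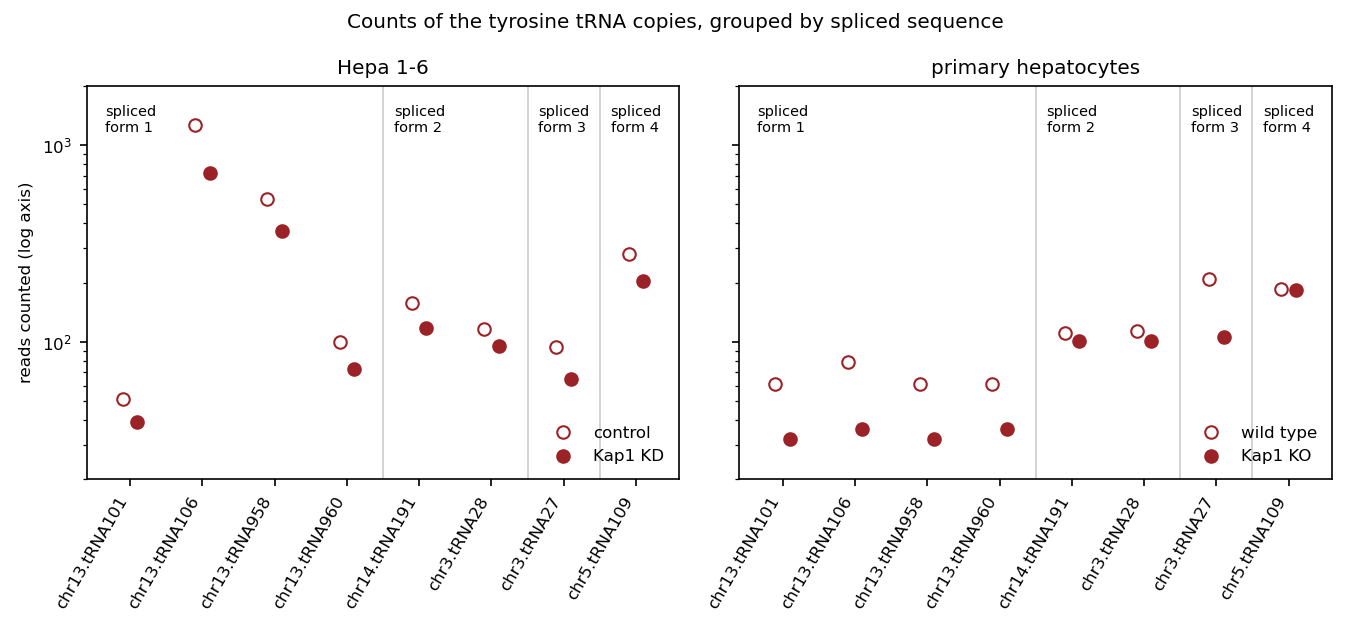
Counts of the 8 Tyr names whose spliced sequence is known, on a log axis, in Hepa 1-6 cells (left) and primary hepatocytes (right), grouped by spliced sequence 1 to 4, with open circles for control or wild type and filled circles for Kap1 KD or KO. Names with spliced sequence 1 spread from 51 to 1272 counts in the Hepa 1-6 control and from 61 to 79 in wild-type hepatocytes.

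The 2 Tyr names without an assigned spliced sequence were unlike each other. chr13.tRNA961-TyrGTA had 61 counts in wild type and 33 in Kap1 KO hepatocytes, and 73 in control and 60 in Kap1 KD Hepa 1-6 cells, with log2 ratios of -1.57 and 0.37. chr13.tRNA959-TyrGTA was close to empty in hepatocytes, with 1 count in each library, and had 4 counts in control and 14 in Kap1 KD Hepa 1-6 cells, too few to pass.

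Cys tRNA came almost wholly from 1 listed sequence in Hepa 1-6 cells. chr17.tRNA458-CysGCA had 16457 counts in control and 9344 in Kap1 KD, which was 98.8% (interval 98.6 to 99.0) and 98.6% (98.4 to 98.9) of the Cys counts. Its log2 ratio was -0.17 (-0.20 to -0.13), within 1.5-fold and close to the median of the other tRNA sequences. The summed Cys counts, 16653 and 9474, gave -0.16 (-0.20 to -0.13), and without that sequence the sum was 196 against 130 counts, a log2 ratio of 0.06 (-0.27 to 0.39).

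The other Cys sequences were sparse in the line, and only 2 of them passed. chr6.tRNA1018-CysGCA had 31 counts in control and 43 in Kap1 KD, the highest log2 ratio of the 4 families there at 1.12 (interval 0.42 to 1.84). chr6.tRNA157-CysGCA had 26 and 27 counts, at 0.70 (-0.13 to 1.54). Of the 19 Cys names listed for the line, 8 reached 10 counts in control and 5 in Kap1 KD.

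In hepatocytes the Cys counts were divided mainly between a pair of sequences. chr11.tRNA1444-CysGCA had 120 counts in wild type and 79 in Kap1 KO, a log2 ratio of -1.30 (interval -1.73 to -0.88), whereas in the line it had 6 and 3 counts. chr17.tRNA458-CysGCA had 116 and 54 counts, at -1.79 (-2.29 to -1.32). These were 41.4% and 40.0% of the Cys counts in wild type. The Cys sum was 290 counts in wild type and 204 in Kap1 KO, a log2 ratio of -1.20 (-1.47 to -0.94), and -0.91 (-1.24 to -0.59) without chr17.tRNA458-CysGCA. The remaining 16 names summed to 54 and 71 counts, a log2 ratio of -0.31 (-0.83 to 0.24). They had at most 12 counts in either library, and chr6.tRNA1020-CysGCA, the highest of them, had 11 and 12.

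The Trp sum of Hepa 1-6 cells was alike in both libraries after scaling, while its copies diverged. There were 1359 counts in control and 889 in Kap1 KD, a log2 ratio of 0.04 (interval -0.09 to 0.16). All 8 Trp sequences passed, with 6 below 0 and 2 above. chr10.tRNA1282-TrpCCA had 323 and 328 counts, a log2 ratio of 0.67 (0.45 to 0.90), and chr11.tRNA398-TrpCCA had 363 and 290, at 0.33 (0.10 to 0.55).

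On the other side of 0, chr11.tRNA1880-TrpCCA had 255 counts in control and 93 in Kap1 KD, at -0.80 (interval -1.16 to -0.46). chr11.tRNA1849-TrpCCA had 83 and 27 counts, at -0.95 (-1.65 to -0.33). Neither interval overlapped that of chr10.tRNA1282-TrpCCA, a difference that scaling cannot remove because it lies within the same pair of libraries. chr10.tRNA1282-TrpCCA and chr11.tRNA1849-TrpCCA were the highest and the lowest of Trp. Such a spread was not particular to Trp: lysine sequences ran from -1.28 to 0.69 and isoleucine from -0.75 to 0.90. Others ran less far, such as glutamine from -0.35 to 0.42. The identical genes chr13.tRNA107-TrpCCA and chr13.tRNA109-TrpCCA had 81 and 39, and 80 and 29 counts, at -0.39 (-0.99 to 0.16) and -0.80 (-1.48 to -0.18), and so did not differ from each other beyond counting error.

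In hepatocytes, chr10.tRNA857-TrpCCA held 62.5% of the Trp counts in wild type and 57.6% in Kap1 KO. It had 187 and 170 counts, a log2 ratio of -0.83 (interval -1.14 to -0.53). chr11.tRNA1880-TrpCCA had 50 and 54 counts and chr10.tRNA1282-TrpCCA 31 and 31, at -0.59 and -0.70. The Trp sum of 299 and 295 counts gave -0.72 (-0.95 to -0.48), less far from 0 than that of Tyr. In the line chr10.tRNA857-TrpCCA had 101 counts in control and 46 in Kap1 KD and did not lead. There chr11.tRNA398-TrpCCA held the most Trp counts in control (26.7%) and chr10.tRNA1282-TrpCCA in Kap1 KD (36.9%).

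Phe tRNA was close to the limit of what the counts could show. In Hepa 1-6 cells chr5.tRNA1315-PheGAA had 43 counts in control and 13 in Kap1 KD, a log2 ratio of -1.04 (interval -2.09 to -0.15). chr10.tRNA961-PheGAA, whose tRNA sequence is the same, had 35 and 18, at -0.29 (-1.22 to 0.55), and chr13.tRNA988-PheGAA had 30 and 19, just under the minimum. The Phe sum gave -0.50 (-1.01 to -0.02) in the line.

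No Phe sequence passed in hepatocytes. chr13.tRNA988-PheGAA had 10 counts in wild type and 6 in Kap1 KO, chr5.tRNA1315-PheGAA 3 and 11, and chr14.tRNA457-PheGAA 1 and 11. The Phe sum of 19 and 40 counts gave a log2 ratio of 0.36 (interval -0.44 to 1.25). The interval spanned both signs, so no direction could be given at this depth. It lay above the hepatocyte intervals of the Tyr (-1.35 to -1.06), Cys (-1.47 to -0.94) and Trp (-0.95 to -0.48) sums.

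**Figure D4:**
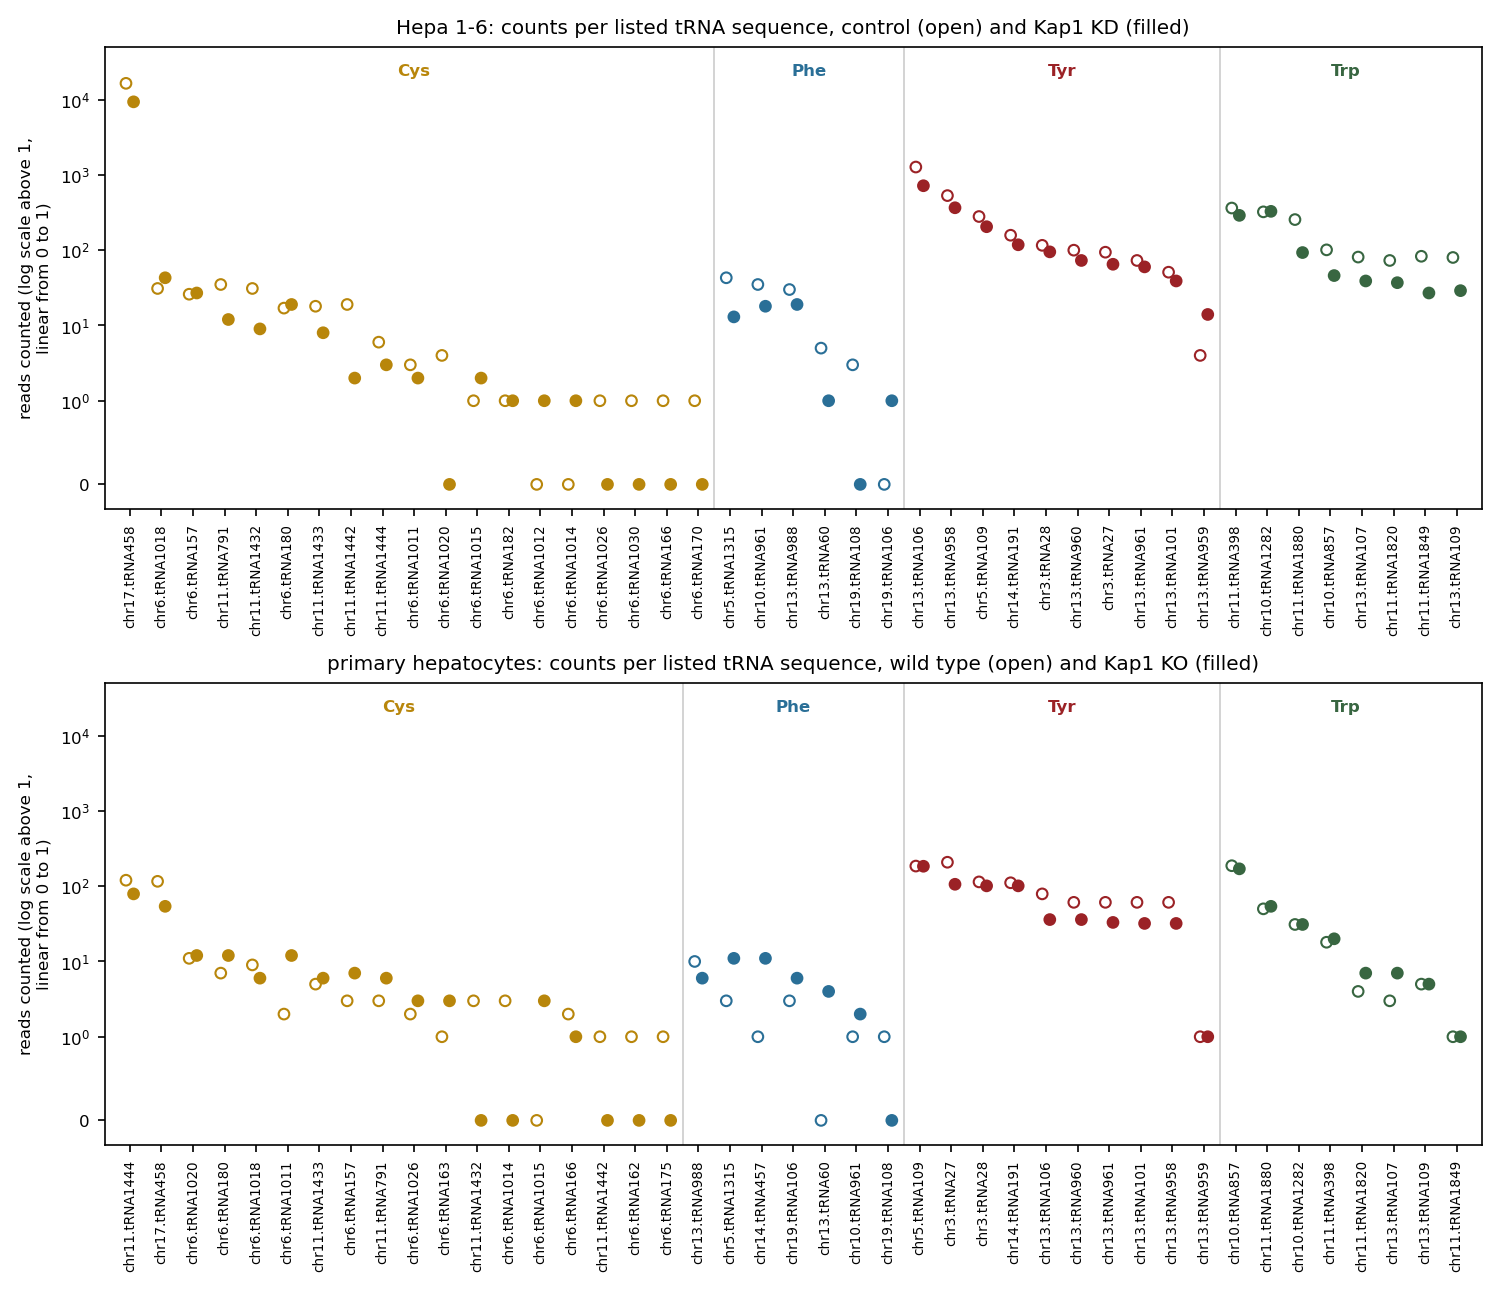
Counts of every listed Cys, Phe, Tyr and Trp tRNA sequence in Hepa 1-6 cells (top) and primary hepatocytes (bottom), on an axis that is logarithmic above 1 and linear from 0 to 1, with open circles for control or wild type and filled circles for Kap1 KD or KO. chr17.tRNA458 stands at 16457 and 9344 counts in the line, far above the other Cys sequences, and at 116 and 54 in hepatocytes.

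The remaining tRNA sequences, taken as the background of the families, moved in both directions. In Hepa 1-6 cells the medians of 17 other amino acid labels ran from -0.62 for leucine to 0.44 for histidine, with 11 below 0 and 6 above. Tyr stood at 0.20 over 9 sequences and Trp at -0.43 over 8, inside that range. Cys at 0.70 over 3 sequences lay above it and Phe at -0.66 over 2 lay below it. The Cys median was the value of chr6.tRNA157-CysGCA, with 26 and 27 counts, whereas the Cys sum stood at -0.16, inside the range. In hepatocytes the other 17 medians ran from -1.59 for glutamine to 0.95 for proline, with 12 below 0 and 5 above. Tyr at -1.57 over 9 sequences, Cys at -1.55 over 2 of 18 names and Trp at -0.70 over 3 were on the lower side of these, and among the 16 labels with at least 3 sequences that passed none was lower than Tyr. Of the 9 Tyr names, 4 have spliced sequence 1 and 2 have spliced sequence 2. Values of names with the same spliced sequence are not independent of each other.

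**Figure D5:**
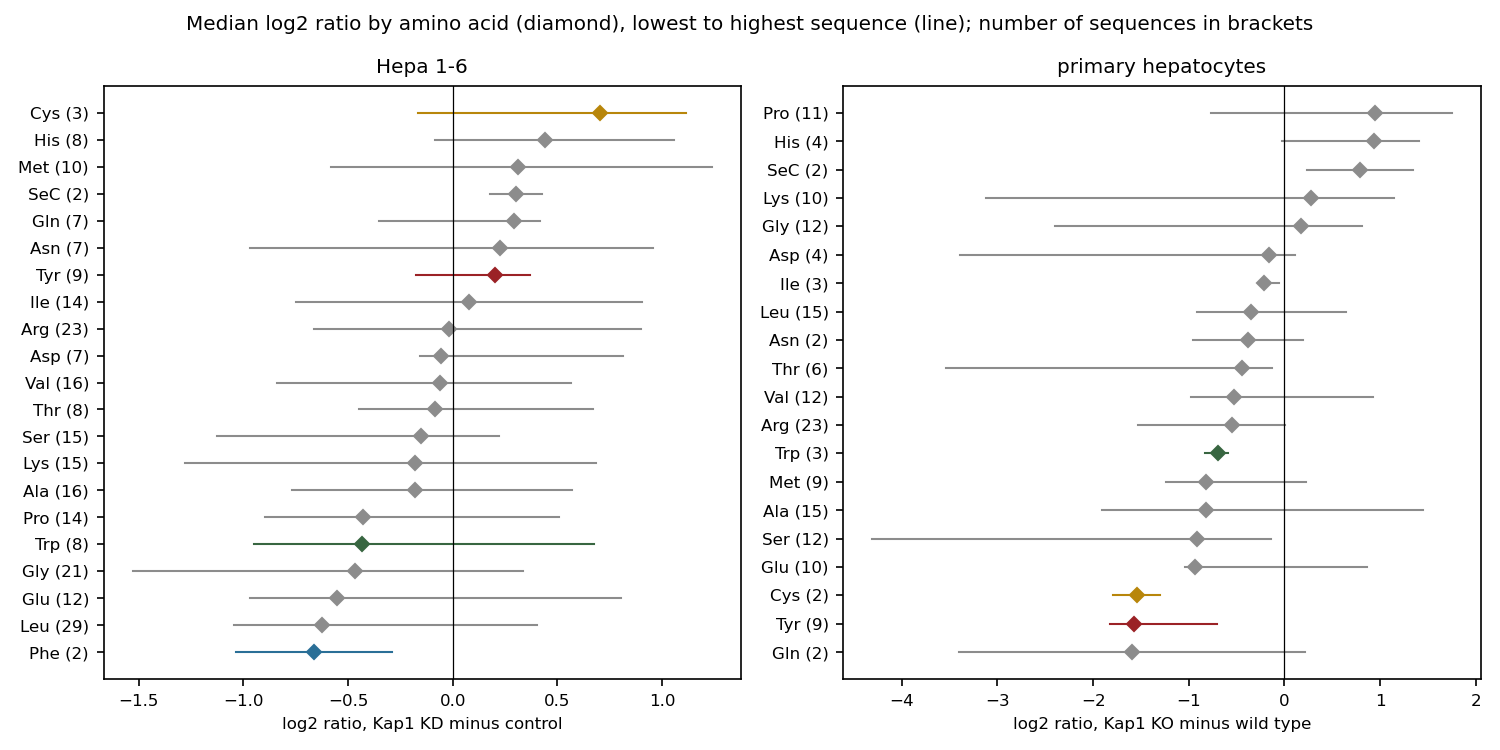
Median log2 ratio of the tRNA sequences of each amino acid (diamond) with the lowest and the highest sequence (line), Kap1 KD minus control in Hepa 1-6 cells (left) and Kap1 KO minus wild type in hepatocytes (right), for sequences with at least 50 counts and with their number in brackets. Tyr stands at 0.20 on the left and at -1.57 on the right, where only glutamine with 2 sequences is lower.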

How the data were processed

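The authors deposited small RNA counts per listed tRNA or snoRNA sequence, not normalized. The tables also hold a deposited signal, where all counts of a library were divided by a single factor, and the same signal per kb of listed length. Only the counts were used. The study's RNA-Seq methods name TopHat 2.0.11 on mm9, with 1 alignment reported per read, and HTSeq-count (0.6.1 in the processing notes), and do not say whether the small RNA tables were made this way. In the hepatocyte table each library has 2 columns that are equal on all 467 rows, and was counted as 1 library. mRNA counts, which the authors deposited per gene, were used for Trim28 alone, as CPM of the library total. TMM scaling used edgeR 4.0.16 and size factors DESeq2 1.42.0, in R 4.3.3. Intervals are Clopper-Pearson, and PCR copies of a molecule could not be told from other reads. The calculation of the ratios was checked on simulated Poisson counts with the same scaling factors. There, 95.6% (341 sequences, Hepa 1-6) and 94.7% (263, hepatocytes) of the intervals held the true value. The simulation held no variation between libraries, PCR copies or reads shared by copies, so it does not bear on these. Genes were searched in NCBIM37 with an anticodon, stem pairing and length rule. The sequences and positions of some Tyr genes are not reported here. Named members were the 3 with the most counts per family and table, and the 3 highest and 3 lowest ratios per pair with at least 100 counts. The members, lists and rules were chosen with earlier results of these data known, and further Tyr and Cys copies were named after their values were seen.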

Additional observations from a re-analysis of the deposited data

Results flagged for a closer look

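The log2 ratio had opposite signs in the line and in hepatocytes, with counting intervals that did not overlap, for the Tyr sum (0.039 and -1.21) and the Trp sum (0.039 and -0.72). In the line, however, the intervals of both sums spanned both signs (-0.05 to 0.13 for Tyr and -0.09 to 0.16 for Trp). Each contrast has 1 library per condition and the rRNA depletion kits differed, so the difference between the 2 contrasts was not tested. Of the 13 members that passed in both pairs, 9 (69.2%) also had opposite signs with intervals that did not overlap. The same held for 53 of 149 other tRNA sequences (35.6%) and 72 of all 254 sequences that passed in both (28.3%). All 9 members had the higher ratio in the line. Of the 53 other tRNA sequences, 28 went this way and 25 the reverse, and of the 72 sequences, 43 and 29. Several of the 9 have the same spliced sequence, and no test of this difference was made. chr10.tRNA1282-TrpCCA stood at 0.67 in Hepa 1-6 cells and -0.70 in hepatocytes. The Tyr sequences were chr13.tRNA101-TyrGTA (0.27 and -1.62), chr13.tRNA958-TyrGTA (0.11 and -1.62), chr13.tRNA960-TyrGTA (0.20 and -1.45), chr13.tRNA961-TyrGTA (0.37 and -1.57), chr14.tRNA191-TyrGTA (0.23 and -0.83), chr3.tRNA27-TyrGTA (0.12 and -1.67), chr3.tRNA28-TyrGTA (0.36 and -0.87) and chr5.tRNA109-TyrGTA (0.20 and -0.70). The Hepa 1-6 intervals of all these Tyr names spanned both signs, as did the hepatocyte interval of chr10.tRNA1282-TrpCCA (-1.46 to 0.07). The positive side of the Hepa 1-6 pair depends on the scaling, since with the total of listed counts both sums stood at -0.77 there.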

How the results depend on the processing

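No paired analysis was possible because each condition has 1 small RNA library and no test was made. With scaling to the total of listed counts, which shifted the median over the whole table by -0.81 in the line and -1.16 in hepatocytes, the members' median was -0.69 in the line, that is below 0, and -2.54 in hepatocytes. The sums were then -0.97 (Cys), -1.30 (Phe), -0.77 (Trp) and -0.77 (Tyr) in the line and -2.37 (Cys), -0.81 (Phe), -1.88 (Trp) and -2.37 (Tyr) in hepatocytes, and in the line 0 members were 1.5-fold higher and 14 lower. With TMM over tRNA sequences only, the Cys sum was -0.081 in the line, the hepatocyte sums were -0.85 (Cys), -0.37 (Trp) and -0.86 (Tyr), and 8 hepatocyte members were 1.5-fold lower. A minimum of 10 counts gave 5 higher and 7 lower in the line, and 3 higher and 17 lower in hepatocytes, where the members' median was -0.70 and its difference from the other tRNA sequences -0.38. A minimum of 500 gave 1 higher and 0 lower in the line. At 500 counts no hepatocyte member and no Phe sum was left. With no minimum beyond 1 count, the members' median was -0.17 in the line and -0.70 in hepatocytes. The difference from the other tRNA sequences was then -0.051 in the line and -0.37 in hepatocytes. The counts were 10 higher and 14 lower in the line and 5 higher and 26 lower in hepatocytes. Shares past 1.5-fold over all listed sequences were calculated at the main settings only. The counts of members at other settings therefore have no background beside them and show only how the counts depend on the processing.

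Alternatives chosen after seeing the data were these. Without chr17.tRNA458 the Cys sum was 0.060 in the line and -0.91 in hepatocytes. Without chr13.tRNA106 the Tyr sum was 0.21 in the line. With Tyr copies of the same spliced sequence averaged it was 0.13, and with such copies summed the members' median was -0.11 in the line. With snoRNA in the denominator, the shares in control, Kap1 KD, wild type and Kap1 KO were 0.0634%, 0.0324%, 0.00958% and 0.00185% for Cys, 0.000442%, 0.000178%, 0.000627% and 0.000363% for Phe, 0.0102%, 0.00600%, 0.0311% and 0.00601% for Tyr, and 0.00518%, 0.00304%, 0.00987% and 0.00268% for Trp. These shares were planned, and they fall with the share of tRNA among all listed counts. The other 107 values kept their direction and stayed within the counting interval, for medians within an order-statistic range of the members' values, and for counts within 1.5 times. The hepatocyte members' median at 10 counts lay at the upper end of that range. Except for those named, the causes of these changes were not tested. The number of libraries limits all ratios, and few counts limit Phe and most Cys names.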
